A study of Homo sapiens with 9 samples.

Results

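The genes described here encode the oxygen-sensing hydroxylases that act on the hypoxia-inducible factors (HIF), namely EGLN1, EGLN2, EGLN3, HIF1AN and P4HTM, together with the recognition subunit VHL. They are a fixed set of gene names and comprise 6 of the 58735 genes in the count table. The naming uses no measured value, but the set was proposed with earlier results of these data known. RNA was sequenced from 786-0 cells, an established human clear cell renal cell carcinoma (ccRCC) line that lacks functional VHL, carries an inactivating mutation of HIF1A and therefore keeps HIF2α (encoded by EPAS1) constitutively active. The 9 libraries fall into 3 groups of 3: untreated cells (control), cells exposed for 48 h to 10 μM PT2385, a small molecule that antagonizes HIF2α (PT2385), and HIF2α knockout cells (HIF2α KO, KO below). All groups were grown in normoxia at 21% O2 in DMEM with 5 mM glucose and 10% FBS, and so all share the VHL and HIF1A defects of the line. The labels name no vehicle for the control, and the sources used here do not say how the KO cells were made or whether they are 1 clone. The sources used here do not say whether replicates were separate cultures, so the p-values measure the spread between these samples, which may be technical.

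EGLN1, EGLN2 and EGLN3 (also known as PHD2, PHD1 and PHD3) are dioxygenases that use oxygen, iron and 2-oxoglutarate to hydroxylate prolines in HIFα. Hydroxylated HIFα is bound by VHL, the substrate receptor of a ubiquitin ligase built on elongins B and C and cullin 2, and is degraded. HIF1AN (FIH) instead hydroxylates an asparagine in the transactivation domain of HIFα, which blocks the binding of p300 and CBP, and P4HTM is a transmembrane prolyl hydroxylase of the endoplasmic reticulum. EGLN3 and EGLN1 are themselves well known HIF-inducible genes, which forms a feedback loop on HIF activity, and HIF binds DNA at a short core motif in hypoxia response elements. In cells without functional VHL the prolyl hydroxylases can still act, but the hydroxylated HIFα is not degraded through VHL.

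The windows around the transcription start sites of EGLN1 and EGLN3 are shown because these were the members with the largest changes in expression. They run from 250 bases before to 50 bases after the start (RefSeq, GRCh38.p14), are written 5′ to 3′ on the strand of the gene, and carry in capitals every match to the core motifs ACGTG or GCGTG on either strand. The EGLN1 window lies at chr1:231422238-231422537 on the minus strand and the EGLN3 window at chr14:33951025-33951324 on the minus strand.
EGLN1: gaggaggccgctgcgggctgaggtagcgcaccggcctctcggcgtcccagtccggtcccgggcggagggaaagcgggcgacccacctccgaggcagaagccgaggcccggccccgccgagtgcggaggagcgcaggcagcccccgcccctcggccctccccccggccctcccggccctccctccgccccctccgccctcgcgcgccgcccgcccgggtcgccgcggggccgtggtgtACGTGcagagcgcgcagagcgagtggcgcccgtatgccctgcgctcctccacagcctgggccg
EGLN3: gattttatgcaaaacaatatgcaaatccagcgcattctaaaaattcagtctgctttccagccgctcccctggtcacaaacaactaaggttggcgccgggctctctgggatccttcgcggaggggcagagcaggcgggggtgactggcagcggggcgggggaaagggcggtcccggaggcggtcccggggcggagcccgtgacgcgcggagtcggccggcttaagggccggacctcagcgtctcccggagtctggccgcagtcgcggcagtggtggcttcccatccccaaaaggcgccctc
The EGLN1 window holds 1 match, ACGTG on the strand of the gene, which begins 13 bases before the start, at position -13. The EGLN3 window holds 0 matches, which says only that these letters are not in this window. Among the other members with an entry, EGLN2 has 2 windows, of which the first (chr19:40798941-40799240, plus strand) holds 2 overlapping matches, 1 on each strand, at -49 and -48 and the second (chr19:40799272-40799571) holds 0. HIF1AN (chr10:100535693-100535992, plus strand) holds 0 and P4HTM (chr3:48989658-48989957, plus strand) holds 1, GCGTG on the opposite strand at position 13 after the start. At least 1 match was found in 48.4% of 35116 promoter windows of the same length, so a match is common and is given as a description only.

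Total counts ran from 11881000 to 14730081 per library, and all 6 members passed the filter on low counts in every comparison. EPAS1, the targeted gene, was measured at 271, 265 and 233 CPM (counts per 1000000, TMM-scaled) in the control libraries and at 20.3, 25.0 and 21.1 CPM in KO, or 8.63% of the control mean, with counts of 262 to 360 per KO library. PT2385 libraries had 248, 248 and 219 CPM of EPAS1, which overlapped the control libraries (log2 fold change -0.11, standard error 0.0746, edgeR adjusted p = 0.459). All 6 genes looked at as renal markers (PAX8, PAX2, CDH6, KRT8, KRT18 and VIM) were counted in every group, with summed levels of 5742 to 6300 CPM. Most of this sum was VIM, which is not specific to epithelium. Of the 6 genes, 4 were called against control in both comparisons. CDH6 was higher, at 261% of the control mean with PT2385 and 203% in KO. KRT18 at 138% and 179% and KRT8 at 120% and 144% were also higher, and PAX2 at 73.9% and 40.0% was lower. Their part in the results was not tested. None of 8 markers of leukocytes, endothelium, hepatocytes or erythrocytes exceeded 2 counts in any library. In bulk RNA, fewer cells of a type and less RNA per cell cannot be told apart.

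**Figure D1:**
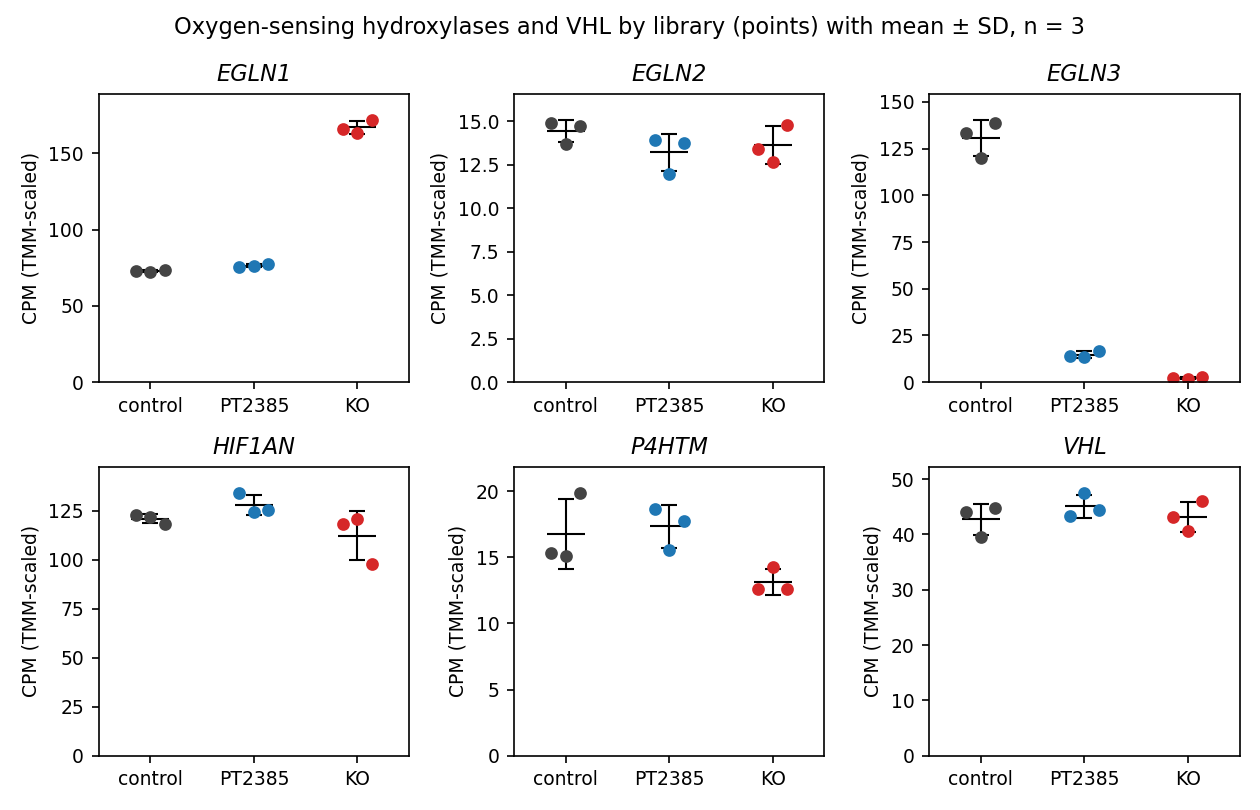
Expression of the 6 members in each of the 9 libraries, in TMM-scaled CPM on linear axes that start at 0. Points are libraries, horizontal lines are group means and error bars are the SD (n = 3); EGLN3 fell from about 131 CPM in control to 14.8 in PT2385 and 2.41 in KO, EGLN1 rose to 167 in KO, and the other group means lay between 78.5% and 106% of control.

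Upon PT2385 treatment, 1 of the 6 members changed, namely EGLN3, which fell, at an adjusted p under 0.05. In the same comparison 7.70% of 15089 tested genes were called, 3.08% higher and 4.62% lower. In KO against control, 2 members were called: EGLN3 fell and EGLN1 rose. Here 30.1% of 15192 tested genes were called, 14.7% higher and 15.4% lower. The direct comparison of KO with PT2385, which involves no control library, called 3 members: EGLN3 and P4HTM were lower in KO and EGLN1 was higher. In that comparison 18.8% of 15402 genes were called, 8.47% higher and 10.3% lower. With 6 members a single call moves the share widely, so these counts are not read as a result about the group, and each gene is described by its own values. The comparisons of PT2385 and of KO with control share their 3 control libraries, so the changes are given side by side and were not counted as independent.

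**Figure D2:**
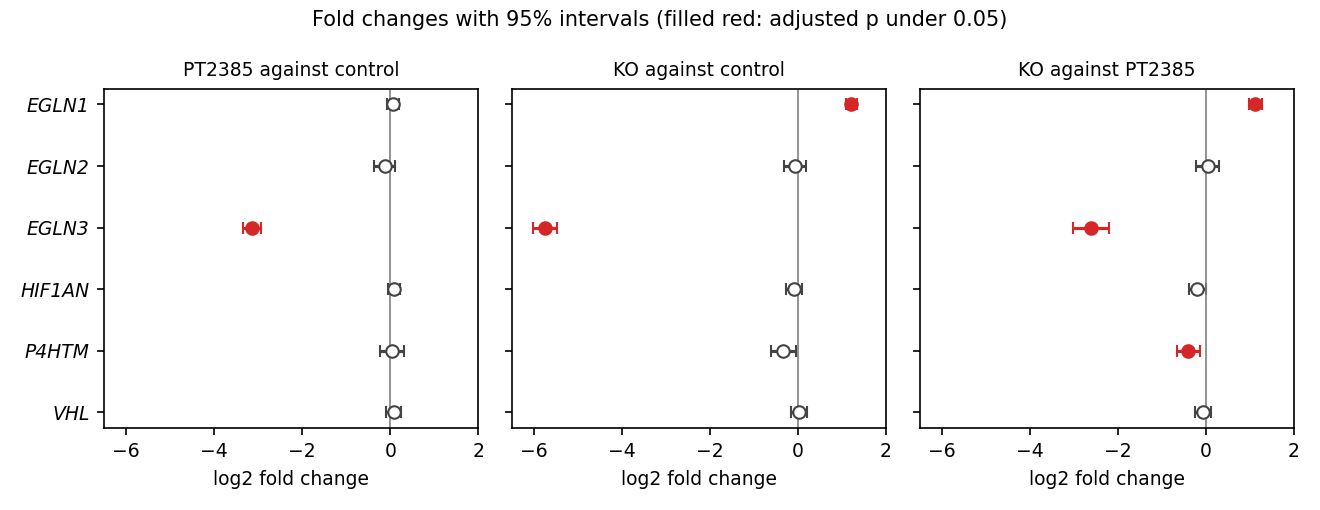
Log2 fold changes of the 6 members in the 3 comparisons (edgeR), with 95% confidence intervals as bars and members with an adjusted p under 0.05 filled in red. EGLN3 lies at -3.14, -5.74 and -2.61 and EGLN1 at 0.06, 1.21 and 1.13, while the intervals of EGLN2 and VHL cross 0 in all 3 panels.

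EGLN3 (ENSG00000129521, chromosome 14, 33924227 to 34462774, minus strand) is the hydroxylase whose mRNA is known to respond most strongly to HIF in many cell types. Its level in the control libraries was 133, 119.9 and 139 CPM. With PT2385 it was 13.9, 13.6 and 16.8 CPM. In KO it was 2.47, 1.87 and 2.89 CPM, from counts of 32, 27 and 42. The 3 groups did not overlap, and every KO library lay below every PT2385 library, which in turn lay below every control library. With PT2385, EGLN3 fell by 3.14 on the log2 scale, an 8.84-fold decrease (standard error 0.0952, 95% interval -3.35 to -2.94, edgeR adjusted p = 1.35e-09), which left 11.3% of the control mean. Ranked by the size of the fall, EGLN3 stood at 14 of 15089 tested genes.

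In KO the log2 fold change of EGLN3 against control was -5.74, a 53.5-fold decrease (standard error 0.123, 95% interval -6.01 to -5.47, edgeR adjusted p = 5.46e-10). The mean in KO was 1.85% of that in control, and EGLN3 ranked 17 of 15192 genes by the size of its fall and 1 by p. KO was also below PT2385, at -2.61 on the log2 scale (standard error 0.184, 95% interval -3.02 to -2.21, edgeR adjusted p = 5.74e-06), or a 6.12-fold difference. The way of blocking HIF2α, the length of its loss and the derivation of the KO cells cannot be told apart in this comparison. EGLN3 stood out from its near chromosomal surroundings. The other tested genes within 2 Mb, 19 with PT2385 and 20 in KO, had median log2 fold changes of -0.04 and 0.01. None of these fell as far. Within 5 Mb in KO against control, 38 of 39 neighbours lay above EGLN3, and the lowest was at -7.62.

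EGLN1 (ENSG00000135766, chromosome 1, 231363751 to 231422287, minus strand) encodes PHD2, the main HIF prolyl hydroxylase under normoxia in most cells. Control libraries had 73.0, 72.4 and 73.5 CPM and PT2385 libraries 75.6, 76.0 and 77.7 CPM. In KO it was 166, 163 and 172 CPM. Thus EGLN1 in KO lay above all other libraries, at 229% of the control mean, while the PT2385 libraries lay just above the control libraries without overlap. The log2 fold change with PT2385 was 0.06 (standard error 0.061, 95% interval -0.07 to 0.20, edgeR adjusted p = 0.607) and did not pass the test. In KO against control it was 1.21 (standard error 0.0579, 95% interval 1.08 to 1.34, edgeR adjusted p = 7.91e-08), a 2.31-fold increase, and in KO against PT2385 1.13 (standard error 0.0651, edgeR adjusted p = 1.70e-06). EGLN1 and EGLN3 therefore moved in opposite directions in KO.

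The increase in EGLN1 in KO was shared by the genes next to it on chromosome 1. In an analysis added after seeing the data, EGLN1 lay within an unbroken run of 13 tested protein-coding genes, all called higher in KO than in control, from COG2 to PCNX2 (chr1:230642481-233295725, 2.65 Mb). The run comprises COG2, C1orf198, TTC13, ARV1, C1orf131, GNPAT, EXOC8, SPRTN, EGLN1, TSNAX, SIPA1L2, NTPCR and PCNX2. COG2 is a Golgi tethering subunit, GNPAT an enzyme of ether lipid synthesis, EXOC8 an exocyst subunit and SPRTN a protease in DNA repair. The log2 fold changes of the other 12 ranged from 0.69 to 1.52 with a median of 1.15, next to 1.21 for EGLN1. The run was bounded by PGBD5, which fell (log2 fold change -0.90, edgeR adjusted p = 8.79e-04), and by MAP3K21 (0.16, adjusted p = 0.295).

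Counting all tested genes within 1 Mb of EGLN1, 11 of 12 neighbours were called higher and 1 lower in KO, with a median log2 fold change of 1.06, and 4 of them lay above EGLN1. Within 2 Mb, 18 of 21 were called higher and 1 lower, with a median of 0.89. EGLN1 thus exceeded its neighbours' median by 0.15 and 0.32 in the 2 windows. Over 5 Mb on either side the median of 62 genes was 0.09, and over the other 1515 tested genes of chromosome 1 it was 0.01. A further stretch of raised genes lay farther off, from TAF1A to PSEN2, with starts at -8.83 to -4.55 Mb from that of EGLN1. In KO against control 29 of its 30 tested protein-coding genes were called higher, all but TP53BP2, with a median log2 fold change of 0.94. The count with PT2385 was 2 of 29. The ends of this stretch were chosen after seeing these fold changes, so the count is a description only. The next tested protein-coding genes outside it were HHIPL2 (-1.86) and COQ8A (-0.13) in KO against control. With PT2385 none of the 21 neighbours within 2 Mb was called higher, 3 were called lower, and the median of the 21 was -0.03. In KO against PT2385 the run held 14 genes, from COG2 to MAP3K21, and the other 13 had a median of 1.03. DNA copy number was not measured in these libraries, and the part of the chromosomal position in the EGLN1 result was not tested.

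**Figure D3:**
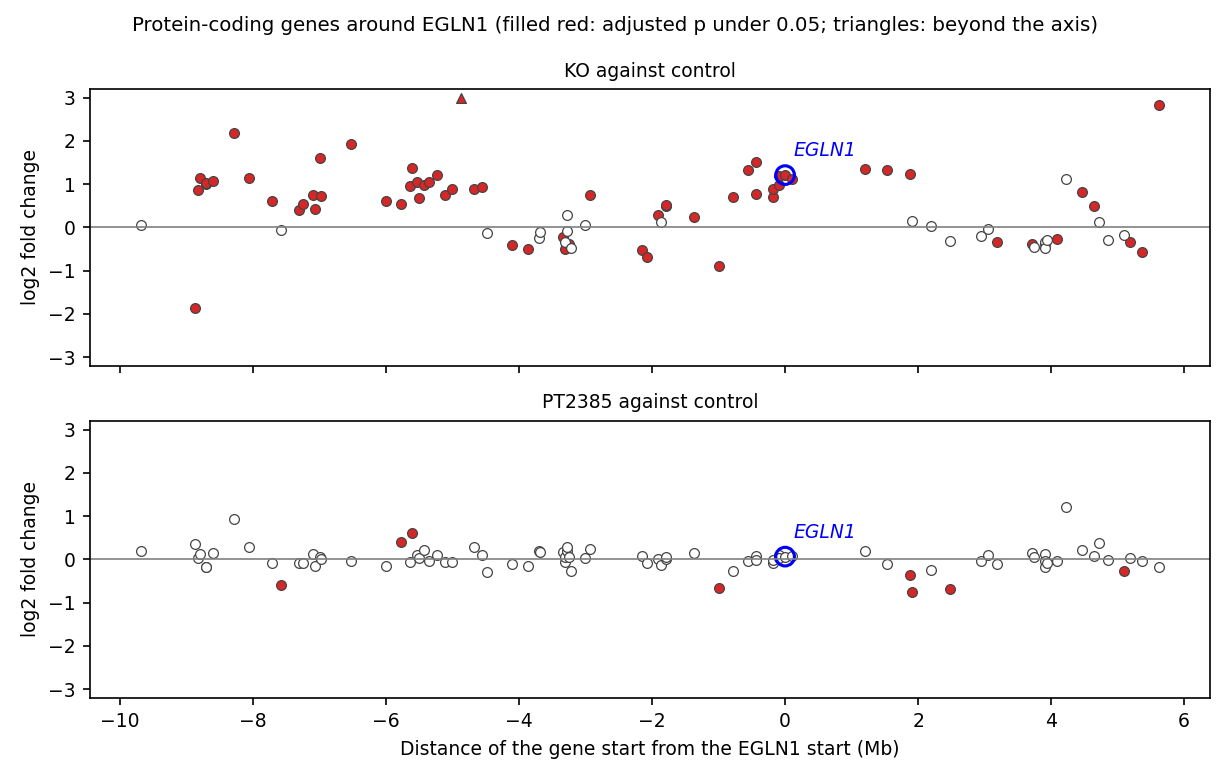
Log2 fold changes of the tested protein-coding genes around EGLN1 (blue ring) against the distance of their start from that of EGLN1, in Mb along the direction of chromosome 1 as annotated, for KO against control (upper panel) and PT2385 against control (lower panel). Filled red points have an edgeR adjusted p under 0.05 and a triangle marks a gene beyond the axis; in KO a block of raised genes surrounds EGLN1, with a median log2 fold change of 0.89 for tested genes within 2 Mb, against -0.03 with PT2385, and further raised genes lie to its left, among them ACBD3 and, beyond the axis, STUM.

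EGLN2 (ENSG00000269858, chromosome 19, 40798996 to 40808434, plus strand) encodes PHD1, which is not regarded as HIF-inducible. It had 14.9, 13.7 and 14.7 CPM in control, 13.9, 12.0 and 13.7 with PT2385, and 13.4, 12.6 and 14.8 in KO. The 3 groups overlapped. The log2 fold change was -0.13 with PT2385 (95% interval -0.37 to 0.11, edgeR adjusted p = 0.547) and -0.07 in KO against control (95% interval -0.32 to 0.18, edgeR adjusted p = 0.687). In KO against PT2385 it was 0.04 (95% interval -0.23 to 0.31). A readthrough gene, RAB4B-EGLN2, covers 95.8% of the bases of the reference EGLN2 transcript and was listed at 0 counts in all libraries, and since the handling of reads shared by overlapping genes is not given in the sources used here, the level of EGLN2 may be understated.

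HIF1AN (ENSG00000166135, chromosome 10, 100529072 to 100559998, plus strand), the asparaginyl hydroxylase, had 123, 122 and 118 CPM in control. It had 134, 124 and 125 CPM with PT2385 and 118, 121 and 97.9 CPM in KO. KO replicate 3 was the lowest of all libraries, and PT2385 libraries lay above the control and KO libraries without overlap. None of the differences passed the test. The log2 fold change was 0.08 with PT2385 (95% interval -0.06 to 0.21, edgeR adjusted p = 0.517), -0.09 in KO against control (95% interval -0.27 to 0.08, adjusted p = 0.420) and -0.19 in KO against PT2385 (95% interval -0.38 to 0.00, adjusted p = 0.167).

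P4HTM (ENSG00000178467, chromosome 3, 48989889 to 49007153, plus strand) had 15.4, 15.1 and 19.8 CPM in control, 18.7, 15.6 and 17.8 CPM with PT2385 and 12.6, 14.3 and 12.6 CPM in KO. All KO libraries lay below those of the other groups. The log2 fold change in KO against PT2385 was -0.40 (standard error 0.119, 95% interval -0.66 to -0.13, edgeR adjusted p = 0.0407), just past the threshold. Against control KO was at -0.33 (95% interval -0.62 to -0.04), which did not pass after adjustment (edgeR adjusted p = 0.0810), and PT2385 was at 0.04 (95% interval -0.23 to 0.32, adjusted p = 0.885). The call against PT2385 was lost with DESeq2 (adjusted p = 0.0722), with a minimum of 10 counts in every library (0.0505) and without 5 of the 6 libraries in turn: KO replicate 1 (0.137), KO replicate 3 (0.0780), PT2385 replicate 1 (0.129), PT2385 replicate 2 (0.0554) and PT2385 replicate 3 (0.105).

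VHL (ENSG00000134086, chromosome 3, 10141778 to 10153667, plus strand) is transcribed in these cells although the line lacks a functional protein. Its level was 44.1, 39.6 and 44.7 CPM in control, 43.4, 47.5 and 44.5 CPM with PT2385 and 43.1, 40.6 and 46.0 CPM in KO. The groups overlapped in all 3 comparisons. The log2 fold change was 0.07 with PT2385 (95% interval -0.10 to 0.24, edgeR adjusted p = 0.652), 0.03 in KO against control (95% interval -0.15 to 0.21, adjusted p = 0.825) and -0.06 in KO against PT2385 (95% interval -0.24 to 0.12, adjusted p = 0.657). Differences beyond about 0.24 in size on the log2 scale lay outside all of these intervals.

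To compare levels between the genes, CPM was divided by the length of all annotated exons of each gene in kilobases. In control, EGLN3 was highest at 17.8 ± 1.32 CPM per kilobase (SD, n = 3), followed by EGLN1 at 13.6 ± 0.106, HIF1AN at 8.70 ± 0.178 and VHL at 8.56 ± 0.561. P4HTM at 2.20 ± 0.350 and EGLN2 at 2.19 ± 0.0982 were lowest by this length. The EGLN2 level may be understated in all groups because of the readthrough gene. The place of P4HTM rests on the length used: per kilobase of the reference (MANE) transcript it was at 9.47 ± 1.51 in control and 9.79 ± 0.900 with PT2385, next to HIF1AN at 9.35 and 9.89 and VHL at 9.69 and 10.2. Neighbours in this order overlapped for HIF1AN with VHL and for P4HTM with EGLN2. With PT2385, EGLN1 was highest at 14.2 and EGLN3 fell to 2.01 CPM per kilobase, next to 2.01 for EGLN2 and 2.27 for P4HTM. The libraries of these 3 genes overlapped in this group, as did those of HIF1AN at 9.20 and VHL at 9.02. In KO, EGLN1 at 31.1 ± 0.827 stood well above VHL at 8.65 and HIF1AN at 8.07, which overlapped, and EGLN3 was lowest at 0.328 ± 0.0694, below EGLN2 at 2.07 and P4HTM at 1.72, none of which overlapped. EGLN3 thus went from the first place in control to the last in KO, and EGLN1 from second to first, by all 3 lengths tried, whereas with PT2385 EGLN3 was last by exon and reference transcript length but ahead of EGLN2 and P4HTM by the longest transcript. The order of HIF1AN, VHL, P4HTM and EGLN2 changed with the length. The ratio of EGLN3 to EGLN1 per kilobase was 1.31 in control, 0.141 with PT2385 and 0.0105 in KO, and in control it became 2.73 with the length of the longest transcript and 2.87 with that of the reference transcript, so that EGLN3 stayed above EGLN1 in control but the size of the ratio depends on the length used.

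Within the summed CPM per kilobase of the 3 HIF prolyl hydroxylase genes, EGLN3 made up 53.4%, 51.2% and 54.2% in the control libraries. With PT2385 its share was 10.5%, 10.4% and 12.1%. In KO it was 1.01%, 0.782% and 1.13%. EGLN1 took the place of EGLN3 as the gene with the largest share, with 40.5% ± 1.56 in control, 78.0% ± 1.31 with PT2385 and 92.8% ± 0.474 in KO (SD, n = 3). EGLN2 held 6.55%, 11.0% and 6.18%, values that may be understated because of the readthrough gene. Without EGLN2, chosen after seeing the data, the EGLN3 shares were 56.7%, 12.4% and 1.04%. The level of EGLN1 itself was not called different with PT2385 (mean 76.4 CPM beside 73.0 in control). In KO the rise of EGLN1 was shared by its chromosomal neighbours. The mean EGLN3 share differed from control by -41.9 percentage points with PT2385 and by -52.0 in KO, and between KO and PT2385 by -10.0. These sizes depend on the length: with the longest transcript the EGLN3 shares were 69.0%, 19.7% and 1.97% in control, PT2385 and KO, and the differences -49.3, -67.1 and -17.8 points. By exon length the groups did not overlap in any of the 3 pairs, and the two-sided exact permutation test gave p = 0.1 for each (0.1 after adjustment over the 3 pairs), the smallest value that 3 against 3 samples allow.

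The summed level of the 3 genes was 33.5 ± 1.51 CPM per kilobase in control, 18.2 ± 0.521 with PT2385 and 33.5 ± 1.06 in KO. By this length the rise in EGLN1 and the fall in EGLN3 left the sum in KO close to that in control. With the longest transcript the sums were 66.4 ± 3.69, 26.2 ± 1.01 and 42.9 ± 1.48 in control, PT2385 and KO. With reference transcript lengths, chosen after seeing the data, they were 72.0 ± 4.01, 29.4 ± 1.20 and 45.9 ± 1.73. KO lay below control by both of these lengths. The relation of these 2 groups thus depends on the length, and they were close only by exon length. By all 3 lengths the sum was lowest with PT2385. The same held by exon length without EGLN2, whose level may be understated (31.3, 16.2 and 31.4 in control, PT2385 and KO).

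**Figure D4:**
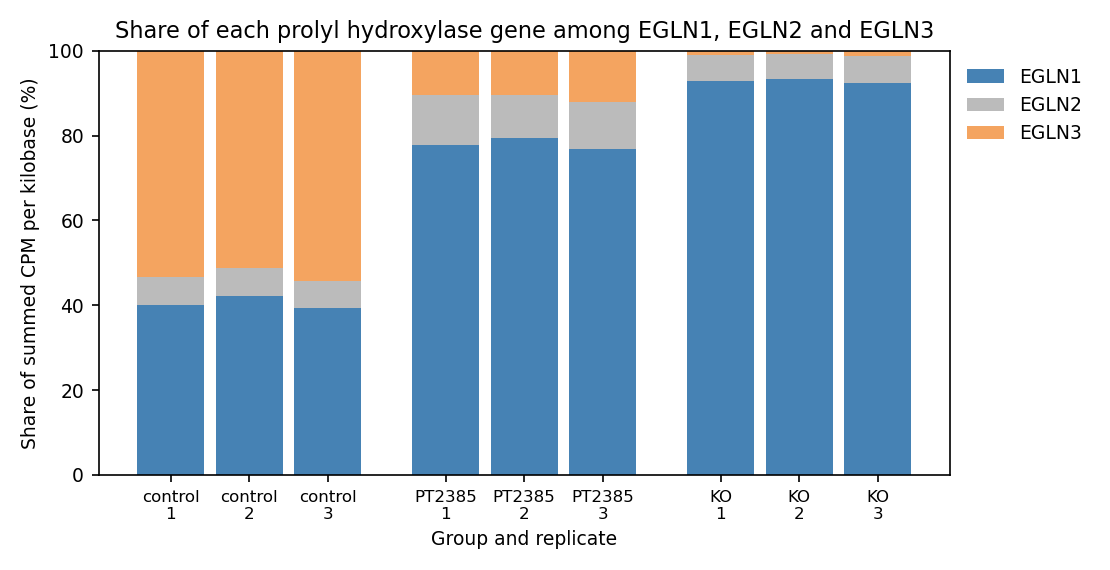
Share of EGLN1, EGLN2 and EGLN3 in their summed CPM per kilobase of exon length, in percent, as a stacked bar for each of the 9 libraries. EGLN3 fills 51.2% to 54.2% of the control bars, 10.4% to 12.1% of the PT2385 bars and at most 1.13% of the KO bars.

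The other genes of the pathway are described by lists chosen with earlier results of these data known, so their counts are not independent evidence. The counts stand beside shares of all tested genes called of 7.70% with PT2385, 30.1% in KO and 18.8% between KO and PT2385. Among the HIF subunits, 4 of 5 were tested (HIF3A had 0 counts), and edgeR and DESeq2 each called 0 with PT2385, where 1 (HIF1A) had an unadjusted p under 0.05. In KO, beside EPAS1, ARNT2, a dimerization partner of HIFα, fell by 1.01 on the log2 scale (standard error 0.152, edgeR adjusted p = 4.85e-04), and HIF1A rose by 0.79 (standard error 0.163, adjusted p = 0.00364). ARNT (HIF1β) was not called in any comparison. KO was below PT2385 for EPAS1 (-3.43, adjusted p = 4.06e-08) and ARNT2 (-1.14, adjusted p = 8.53e-04).

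Of 13 genes of the VHL ubiquitin ligase and its known partners, edgeR and DESeq2 each called 0 with PT2385, where 2 (UBE2M and UBE2S) had an unadjusted p under 0.05. In KO, ELOC, which encodes elongin C, rose by 0.27, while the deubiquitinase USP8 fell by 0.60 and the VHL partner JADE1 fell by 0.22 (edgeR adjusted p of 0.0390, 5.66e-05 and 0.0277). The call of ELOC was lost without KO replicate 1, KO replicate 3, control replicate 1 or control replicate 2 (adjusted p of 0.0553 to 0.154), and that of JADE1 without KO replicate 1, control replicate 1 or control replicate 2 (0.0649 to 0.121). USP8 was also lower in KO than with PT2385 (-0.59, adjusted p = 0.00202), as the single called gene of this list. The median log2 fold change over the list was 0.06 with PT2385 and 0.08 in KO, beside 0.00 over all tested genes in both comparisons. 

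Among 13 tested regulators of hydroxylase stability or activity (14 in KO against PT2385), RHOBTB3 rose with PT2385 (0.26, edgeR adjusted p = 0.0234), a call lost in the model of all 9 libraries and without PT2385 replicate 2, control replicate 1 or control replicate 2 (0.0502 to 0.115). In KO, SIAH1, a ubiquitin ligase known to target EGLN3 protein, fell by 0.55 (adjusted p = 0.00210) and the co-chaperone PTGES3 fell by 0.15 (adjusted p = 0.0467), a call lost in 8 of 14 alternatives, among them each library but KO replicate 3 left out (0.05003 to 0.144). In KO against PT2385, SIAH1 (-0.55, adjusted p = 0.00549) and RHOBTB3 (-0.39, adjusted p = 0.00641) were lower, and CITED2, which competes with HIFα for p300, was higher (0.35, adjusted p = 0.0355), a call lost without KO replicate 2, KO replicate 3, PT2385 replicate 1 or PT2385 replicate 2 (0.0691 to 0.121).

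The other oxygenases that depend on 2-oxoglutarate or, like ADO, on oxygen alone formed a list of 58 genes. With PT2385, 4 of 55 tested genes rose and 4 fell, and the 8 calls became 3 without PT2385 replicate 2 or control replicate 2, and 4 without control replicate 3. The 4 lower genes, named after their values were seen, were the collagen prolyl hydroxylase subunits P4HA1 (-0.52, edgeR adjusted p = 0.00283) and P4HA2 (-0.33, adjusted p = 0.00691), the collagen lysyl hydroxylase PLOD2 (-0.57, adjusted p = 0.00391) and the thiol dioxygenase ADO (-0.27, adjusted p = 0.0355). The 4 higher genes were the histone demethylases KDM5B (0.55, adjusted p = 0.0105), KDM6B (0.30, adjusted p = 0.0493) and PHF8 (0.30, adjusted p = 0.0185) and the lysyl hydroxylase PLOD1 (0.29, adjusted p = 0.0131). In KO, 5 of 54 rose and 11 fell, where 14.7% of all tested genes were called higher and 15.4% lower. P4HA1 was at -0.85 (adjusted p = 3.58e-05), ADO at -0.60 (adjusted p = 4.12e-05) and, as the largest fall, KDM8 at -1.14 (adjusted p = 0.00126). In KO against PT2385, 2 of 55 were higher and 11 lower, and these 13 calls became 3 without PT2385 replicate 2 and 5 without KO replicate 1 or KO replicate 2. The list medians were 0.05, 0.02 and -0.05 in the 3 comparisons, close to the medians of all tested genes.

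Genes of 2-oxoglutarate and succinate metabolism supply or remove the co-substrate and the inhibitory products of the hydroxylases. Of 19 such genes, SDHB, a subunit of succinate dehydrogenase, rose with PT2385 (0.27, edgeR adjusted p = 0.0433), a call lost in 8 of 14 alternatives, including the omission of any library (0.0521 to 0.139), and 18 were not called. In KO, 3 rose and 5 fell, and these 8 calls became 5 without control replicate 3. The largest change was in IDH2, the mitochondrial NADP-dependent isocitrate dehydrogenase, which fell by 1.29 (standard error 0.0946, adjusted p = 2.28e-06) and was also lower in KO than with PT2385 (-1.21, adjusted p = 2.39e-05). In that comparison 2 genes were higher and 5 lower, 7 calls that became 4 without PT2385 replicate 2.

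EGLN3 was set beside 16 widely used HIF-responsive genes, of which 13 were tested (ANGPTL4, ANKRD37 and CA9 were not). With PT2385, 8 were called lower and none higher (edgeR), with a median of -0.97. In KO, 8 were called lower and none higher, with a median of -0.80. At an unadjusted p under 0.05, 0 were higher with PT2385 and 2 (BNIP3 and LOX) in KO, and DESeq2 called 8 and 9 of the 13 in either direction. NDRG1 was at -3.54 with PT2385 and -3.74 in KO. ADM, which encodes adrenomedullin, was at -2.81 and -3.11, and VEGFA at -2.12 in both comparisons. CA12, like EGLN3, fell further in KO, at -1.46 with PT2385 and -3.37 in KO. DDIT4 was at -2.64 and -2.21, and the glucose transporter SLC2A1 at -2.31 and -1.80, each with an edgeR adjusted p of at most 6.58e-06. EGLN3 lay among the strongest of these with PT2385 and below all of them in KO. In KO against PT2385, the carbonic anhydrase CA12 (-1.93, adjusted p = 1.70e-06) and PFKFB3 (-0.64, adjusted p = 3.06e-04) were lower, as EGLN3 was, whereas BNIP3L (0.79, adjusted p = 2.96e-04) and SLC2A1 (0.49, adjusted p = 0.00161) were higher. NDRG1 (-0.22, adjusted p = 0.155), ADM (-0.31, adjusted p = 0.164) and VEGFA (-0.02, adjusted p = 0.926) were not called between KO and PT2385.

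**Figure D5:**
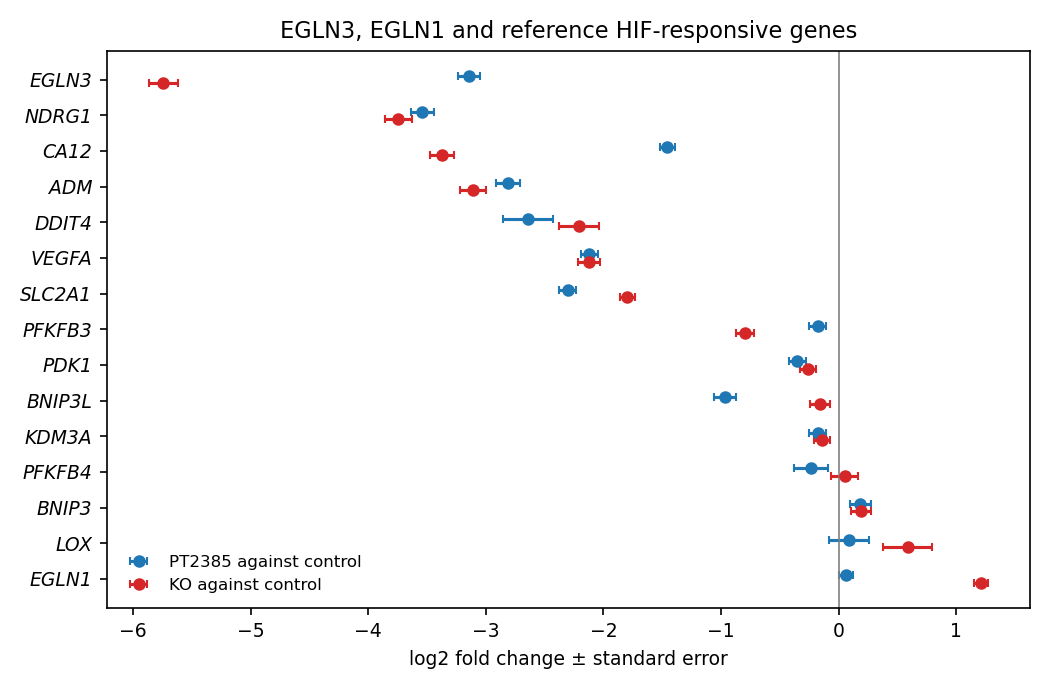
Log2 fold changes with standard errors (bars) of EGLN3, EGLN1 and the 13 tested HIF-responsive reference genes, for PT2385 against control (blue) and KO against control (red), which share their control libraries. EGLN3 lies at -3.14 and -5.74, below every reference gene in KO, while EGLN1 lies at 0.06 and 1.21.

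The genes whose expression followed the called members most closely over the 9 libraries were sought among 11481 genes with a mean of at least 50 counts, by Pearson correlation of log2 CPM. The libraries form 3 groups, so differences between group means enter the correlation, which is given as a description. For EGLN3 they were CP, which encodes ceruloplasmin (r = 0.998), SYT13 (0.997) and PLEKHA2 (0.996). CP followed EGLN3 also in level, at 103.6 CPM in control, 12.7 with PT2385 and 2.66 in KO. For EGLN1 they were ACBD3, SHISA9 and STUM, each with r = 0.996, of which ACBD3 and STUM lie on chromosome 1 as well, with starts at -5.24 and -4.87 Mb from that of EGLN1 (negative values lie on the side drawn to the left in the plot of neighbours). ACBD3 was at 103, 111 and 236 CPM in the 3 groups, and STUM was at 0 CPM in control and PT2385 and at 28.6 CPM in KO. For P4HTM they were ABHD12 (r = 0.973), STK17A (0.955) and WASH6P (0.945).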

How the data were processed

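Counts per gene were deposited by the authors, who, according to their methods, checked reads with FastQC, trimmed them with cutadapt, aligned them to GRCh38 (hg38 in the submitters' processing notes) with STAR and counted them with featureCounts. Tool versions, the annotation release and strandedness are not given in the sources used here. Of 58735 gene IDs, 58207 were paired with symbols through GENCODE. The 9 columns were matched to samples by their names, and groups were taken from the labels.

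Each pair of groups was compared with edgeR 4.0.16 in R 4.3.3 (TMM, filterByExpr with a minimum of 10 counts, quasi-likelihood F test, Benjamini-Hochberg adjustment over all tested genes, adjusted p under 0.05). Log2 fold changes are from these fits, and CPM values were scaled with TMM factors of 0.988 to 1.016. Total counts of 11881000 to 14730081 limit the precision of low genes such as EGLN3 in KO. Replicate libraries differed by more than counting noise (mean chi-square per gene of 2.93 to 16.7).

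The members are a fixed set of gene names, but this set and the gene lists were proposed with earlier results of these data known. All members are named. From each list, called genes with an absolute log2 fold change of at least 1 are named (at most 8), or all called genes where 5 or fewer were called. The 3 genes most correlated with each called member are also named. Any gene named beyond these was picked with its values in view. The alternatives were DESeq2 1.42.0, RLE, upper-quartile and library-size scaling, filters on low counts, the replicate number as a block, a model of all 9 libraries, leaving out each replicate, and gene lengths. Reference (MANE) transcript lengths, shares without EGLN2 and the chromosomal neighbours were added after seeing the data.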

Additional observations from a re-analysis of the deposited data

How the results depend on the processing

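The calls of EGLN3 in all 3 comparisons and of EGLN1 in both comparisons with KO held under DESeq2, 3 other scalings (RLE, upper-quartile, library size), both other filters on low counts, the replicate block, the model of all 9 libraries and the omission of each library. Without each library in turn, the log2 fold change of EGLN3 ran from -3.25 to -3.09 with PT2385, from -5.90 to -5.58 in KO and from -2.77 to -2.45 between KO and PT2385, and that of EGLN1 from 1.19 to 1.23 and from 1.11 to 1.15 in the latter 2. EPAS1 ran from -0.17 to -0.05, -3.62 to -3.46 and -3.53 to -3.37. The number of members called stayed at 1 and 2 against control and was 2 to 3 between KO and PT2385, and the difference in EGLN3 share ran from -42.8 to -41.3, -52.8 to -51.3 and -10.3 to -9.45 percentage points. The length moved it further, to -49.3, -67.1 and -17.8 with the longest transcript and -48.5, -65.1 and -16.6 with the MANE transcript.

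The number of genes called was less stable. It ran from 574 to 1451 with PT2385 (574 without PT2385 replicate 2, 581 without control replicate 2, 654 without control replicate 1, 728 without control replicate 3), from 3344 to 5094 in KO against control and from 1836 to 3190 in KO against PT2385 (1836 without PT2385 replicate 2). Among the pathway lists 10 to 19, 31 to 47 and 16 to 28 genes were called. With the replicate block 2305 genes were called for PT2385 in place of 1162, and 30 pathway genes in place of 18, while the members called were the same. With the block HIF1A, UBE2M and UBE2S were called higher with PT2385 (adjusted p of 0.00354, 0.0474 and 0.0118), and 12 in place of 8 co-substrate genes were called in KO. Over all 15655 tested genes, same-numbered libraries deviated together in 6 of 9 pairs (correlation over 0.1, range -0.0143 to 0.222), beside 1 of 18 pairs with different numbers. Among the 10140 genes with a mean of at least 100 counts, 7 of 9 same-numbered pairs did (0.056 to 0.481, mean 0.304), beside 3 of 18 others (mean -0.149). Deviations from a group mean cancel within each group. The mean of the other pairs is therefore tied to that of same-numbered pairs and is not an independent comparison. In these 10140 genes own numbers matched best in 15 of 18 cases, a hint of pairing from the data. Over all tested genes, however, 3 of 9 pairs were at or below 0.1, and nothing in the labels ties the numbers to a shared culture. The numbers were therefore not taken to pair the samples.

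The values that changed sign were all uncalled and near 0 when a library was left out. They were P4HTM with PT2385, from -0.020 to 0.18 (below 0 without PT2385 replicate 1, control replicate 1 or control replicate 2), VHL in KO against control, from -0.032 to 0.073 (below 0 without KO replicate 3 or control replicate 2), and EGLN2 in KO against PT2385, from -0.023 to 0.096 (below 0 without KO replicate 3 or PT2385 replicate 2). The EGLN3 to EGLN1 ratio per kilobase was 2.73, 0.294 and 0.0219 in control, PT2385 and KO with the longest transcript, and 2.87, 0.309 and 0.0231 with the MANE transcript, because EGLN3 has the larger excess of annotated exon bases over a single transcript. DNA copy number was not measured.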
